A study of Mus musculus with 3 samples.

Results

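Gata4, Gata6, Sox17, Sox7, Foxa2, Foxq1, Hnf4a and Pdgfra were followed in mouse embryonic stem cells (ESCs) that lack ATRX or DAXX. These 8 genes, transcription factors of primitive and definitive endoderm and 1 growth factor receptor, were taken by name from the 24006 gene symbols of the count tables, and all 8 were found. The study sequenced polyadenylated RNA from 3 ESC clones of C57BL/6x129sV background, with 1 library each. They were a wildtype clone (WT26) and the knockouts, a DAXX-/- clone (KO2-3) and an ATRX-/- clone (KO1-44), derived by CRISPR targeting from male isogenic cells. All were grown in serum with leukaemia inhibitory factor and had been passaged from irradiated feeder cells onto gelatin. DAXX is a chaperone that carries histone H3.3, and its partner ATRX, an ATPase of the SNF2 type, directs it to silent chromatin. With 1 clone and 1 library a genotype, a genotype cannot be told apart from its clone, and no difference below has a replicate check or a p-value.

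Primitive endoderm is the extraembryonic layer that separates from the epiblast in the inner cell mass and later forms visceral and parietal endoderm. FGF signalling raises GATA6 in some inner cells while NANOG marks the others, and GATA6 is followed by PDGFRA, SOX17, GATA4 and SOX7. ESC cultures in serum hold a minority of cells that turn these genes on. In RNA from a whole culture, fewer such cells and less RNA per cell cannot be told apart.

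Levels are given as reads and as CPM, which are reads scaled to a library size of 1000000 after trimmed mean of M values (TMM) scaling. Wildtype had 13981915 reads on transcripts, the DAXX-/- clone 11224100 and the ATRX-/- clone 13988376, so 1 CPM is about 11 to 15 reads. Intervals are 95% and cover counting error only. Rose and fell are used only of genes at 1 CPM or more in at least 1 library of the pair whose fold exceeded 2-fold over its entire interval. Atrx had 315.7 CPM in wildtype and 129.99 in the ATRX-/- clone, and Daxx had 77.5 in wildtype and 57.0 in the DAXX-/- clone. Both targeted genes had their lowest value under the matching label, where Atrx fell (log2 fold -1.28, -1.36 to -1.20) and Daxx stood at 73.6% of wildtype (66.6% to 81.2%). Where the edits lie in these genes was not used here.

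The 8 genes were scarce in all libraries, and scarcest in the DAXX-/- clone. Their reads summed to 275 in wildtype, 34 in the DAXX-/- clone and 144 in the ATRX-/- clone. As levels these sums were 18.9 CPM (16.8 to 21.3), 3.11 CPM (2.16 to 4.35) and 10.4 CPM (8.77 to 12.2). The DAXX knockout held 16.4% of the wildtype sum (11.2% to 23.5%) and the ATRX-/- clone 54.9% (44.6% to 67.4%), and the 3 intervals of the level did not overlap. Gata4 gave 35.3% of the reads in wildtype and 52.1% in the ATRX-/- clone. Without Gata4 the ATRX-/- clone held 40.6% of the wildtype sum (30.3% to 53.9%) and the DAXX-/- clone 18.7% (11.8% to 28.5%).

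**Figure D1:**
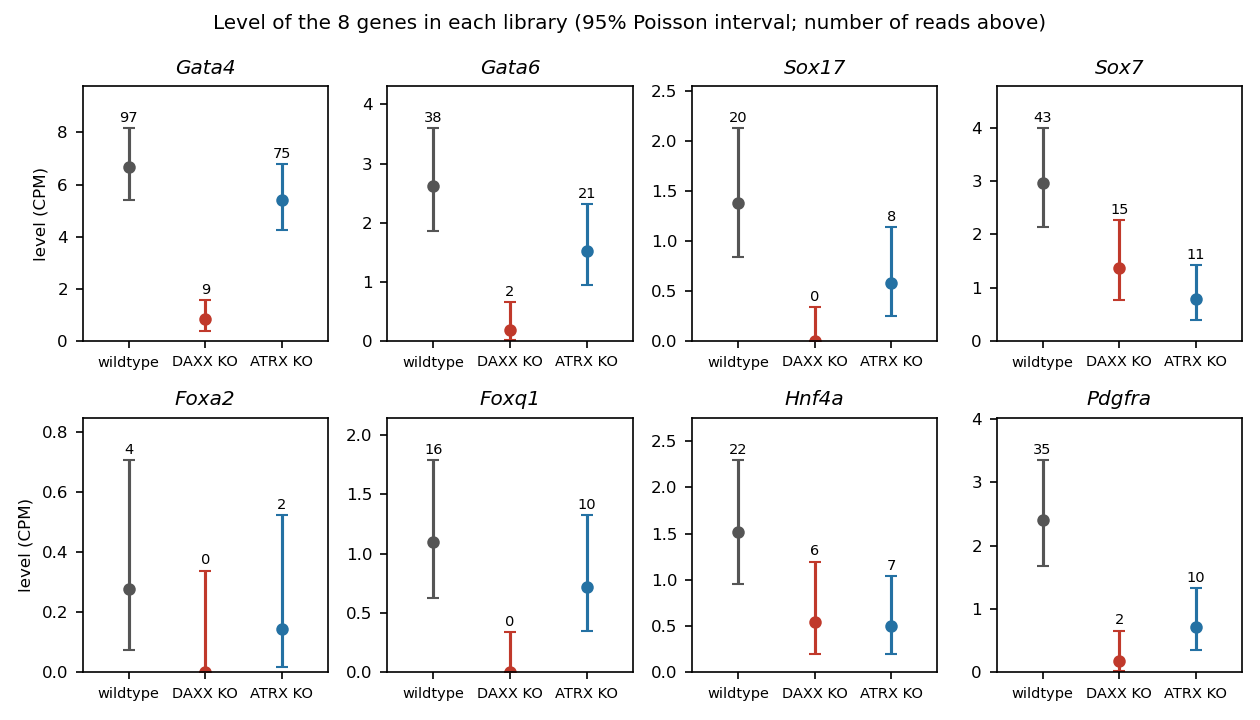
Level of each of the 8 genes (vertical axis, CPM, each panel with its own scale from 0) in the wildtype, DAXX knockout and ATRX knockout libraries. Points are the measured levels of 1 library each, bars are 95% Poisson intervals, and the number above each bar is the number of reads. Wildtype is the highest library in all 8 panels, and Sox17, Foxa2 and Foxq1 have 0 reads in the DAXX-/- clone.

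GATA4 and GATA6 are zinc finger factors that bind the letters GATA and can drive ESCs to an endoderm fate. Gata4 (ENSMUSG00000021944, minus strand of chromosome 14, 63198922 to 63271692, build GRCm38) gave 97 reads in wildtype, 9 in the DAXX-/- clone and 75 in the ATRX-/- clone. These are levels of 6.68, 0.824 and 5.42 CPM. The DAXX knockout stood apart from both others, while the intervals of wildtype (5.42 to 8.15) and the ATRX-/- clone (4.26 to 6.79) overlapped. Gata4 fell in the DAXX-/- clone, with a log2 fold of -3.02 (-4.19 to -2.04) against wildtype. Its log2 fold in the ATRX-/- clone was -0.30 (-0.76 to 0.15), an interval that holds no change.

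Gata6 (ENSMUSG00000005836, plus strand of chromosome 18, 11052064 to 11085635) had 38, 2 and 21 reads in wildtype, the DAXX-/- clone and the ATRX-/- clone. The levels were 2.62 CPM (1.85 to 3.59), 0.183 CPM (0.0222 to 0.662) and 1.52 CPM (0.939 to 2.32). The order was the same as for Gata4, and again the intervals of wildtype and the ATRX-/- clone overlapped. Gata6 fell in the DAXX-/- clone, with a log2 fold of -3.84 (-6.93 to -1.89). The ATRX knockout gave -0.79 (-1.63 to 0.02).

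The reads of Gata4 were divided over 4 annotated transcripts. Where transcripts overlap, a read that fits several of them cannot be assigned to 1. The transcripts of 3400, 3374 and 2407 bases had 35, 38 and 22 reads in wildtype, 1, 6 and 2 in the DAXX-/- clone, and 31, 20 and 23 in the ATRX-/- clone. Each of these 3 was lowest in the DAXX-/- clone, while wildtype and the ATRX-/- clone did not keep 1 order, and the fourth, of 653 bases, had 2, 0 and 1 reads. Gata6 has 1 transcript in the tables, and the noncoding gene 1010001N08Rik, which overlaps it on the opposite strand, had 1, 1 and 2 reads.

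SOX17 and SOX7 belong to the SOX F group of HMG box factors, which act in extraembryonic endoderm and in blood vessels. Their coding sequences are close enough that shared reads had to be considered. The most alike stretch of 60 coding bases, from the part that encodes the HMG box, is shown with the bases that differ in capitals (GENCODE M21, Sox7 exon 2 at chr14:63947799-63947858, plus strand, and Sox17 exon 5 at chr1:4492565-4492624, minus strand).
Sox7: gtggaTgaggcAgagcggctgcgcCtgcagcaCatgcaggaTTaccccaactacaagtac
Sox17: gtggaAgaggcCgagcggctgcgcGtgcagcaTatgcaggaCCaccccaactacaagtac
They differ at 6 of 60 bases, and the longest run without a difference is 17 bases. Of all stretches of 30 bases in the Sox17 transcripts, 0 were found in a transcript of another gene on either strand. For Sox7 1.01% were.

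Sox17 (ENSMUSG00000025902, minus strand of chromosome 1, 4490931 to 4497354) had 20 reads in wildtype, 0 in the DAXX-/- clone and 8 in the ATRX-/- clone. Its levels were 1.38 CPM (0.842 to 2.13), 0 CPM (up to 0.338) and 0.578 CPM (0.249 to 1.14). Sox17 fell in the DAXX-/- clone, where the interval of the fold allows at most 26.9% of the wildtype level. The log2 fold was -1.25 for the ATRX-/- clone (-2.65 to -0.01), with an interval that only just leaves out no change. Of its 7 transcripts, 6 had reads in wildtype and 4 in the ATRX-/- clone, with at most 7 reads on any. Counted on its most abundant transcript alone, Sox17 no longer passed the rule in the DAXX-/- clone (7 reads against 0).

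Sox7 (ENSMUSG00000063060, plus strand of chromosome 14, 63943673 to 63950732) had a different order. It had 43 reads in wildtype, 15 in the DAXX-/- clone and 11 in the ATRX-/- clone, levels of 2.96 CPM (2.14 to 3.99), 1.37 CPM (0.769 to 2.27) and 0.794 CPM (0.397 to 1.42). Sox7 had the most reads of the 8 genes in the DAXX-/- clone, 44.1% of their sum. Its log2 folds were -1.11 (-2.06 to -0.23) in the DAXX-/- clone and -1.90 (-3.003 to -0.92) in the ATRX-/- clone. Both intervals lie below no change and both reach inside 2-fold. The knockouts were not separated from each other (-0.79, -2.06 to 0.43, ATRX over DAXX).

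FOXA2 and FOXQ1 are forkhead factors, the first a pioneer factor of definitive endoderm and of visceral endoderm. Foxa2 (ENSMUSG00000037025, minus strand of chromosome 2, 148042877 to 148046969) was at the limit of detection, with 4 reads in wildtype, 0 in the DAXX-/- clone and 2 in the ATRX-/- clone. Its intervals overlapped in all 3 libraries (0.0751 to 0.706, 0 to 0.338 and 0.0175 to 0.522 CPM), so no difference was detectable at this depth. Foxa1, its nearest relative, had 7, 4 and 9 reads. The closest 60 coding bases of this pair differ at 2 positions, in capitals, with a shared run of 27 bases (chr2:148044117-148044176 and chr12:57542623-57542682, both minus strand, exon 2).
Foxa2: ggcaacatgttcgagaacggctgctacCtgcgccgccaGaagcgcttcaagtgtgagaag
Foxa1: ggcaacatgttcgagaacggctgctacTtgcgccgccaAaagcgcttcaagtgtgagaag
In this stretch a read separates the genes only by those bases. Over the whole gene, 0.414% of the stretches of 30 bases of Foxa2 were found in another gene, all of them in Foxa1.

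Foxq1 (ENSMUSG00000038415, plus strand of chromosome 13, 31556134 to 31560976) had 16 reads in wildtype, 0 in the DAXX-/- clone and 10 in the ATRX-/- clone. The levels were 1.102 CPM (0.630 to 1.79), 0 CPM (up to 0.338) and 0.722 CPM (0.346 to 1.33), so that the DAXX-/- clone lay apart from both others. Foxq1 fell in the DAXX-/- clone, where the interval of the fold allows at most 34.5% of the wildtype level. Its log2 fold in the ATRX-/- clone was -0.61 (-1.91 to 0.62). The protein-coding gene A530084C06Rik overlaps it on the opposite strand in the annotation and was not among the sequences counted.

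HNF4A is a nuclear receptor of visceral endoderm and, later, of liver and gut. Hnf4a (ENSMUSG00000017950, plus strand of chromosome 2, 163506808 to 163572910) had 22, 6 and 7 reads in wildtype, the DAXX-/- clone and the ATRX-/- clone. The levels were 1.52 CPM (0.9498 to 2.29), 0.549 CPM (0.202 to 1.196) and 0.506 CPM (0.203 to 1.04). Both knockouts were lower than wildtype by close amounts. The log2 folds were -1.46 (-3.06 to -0.12) for DAXX and -1.58 (-3.05 to -0.31) for ATRX, neither beyond 2-fold with its whole interval, and the direct difference of the knockouts was -0.12 (-1.92 to 1.73).

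Both Hnf4a transcripts of the tables start at the downstream promoter of the gene, the nearer 32 bases from the RefSeq start there and 40330 bases from the upstream one. RefSeq (GRCm38.p6) gives the 300 bases around each start, 250 before and 50 after. They are shown because the only Hnf4a transcripts in the tables are those with the downstream start. The counts on these transcripts do not show from which start the RNA came. Capitals mark matches on either strand to GATAA (GATA factors), ATTGT (SOX factors), TGTTTNC (forkhead factors) and CAAAGTCCA (HNF4). The upstream window is chr2:163506607-163506906 and the downstream window chr2:163546905-163547204, both on the plus strand.
Hnf4a upstream: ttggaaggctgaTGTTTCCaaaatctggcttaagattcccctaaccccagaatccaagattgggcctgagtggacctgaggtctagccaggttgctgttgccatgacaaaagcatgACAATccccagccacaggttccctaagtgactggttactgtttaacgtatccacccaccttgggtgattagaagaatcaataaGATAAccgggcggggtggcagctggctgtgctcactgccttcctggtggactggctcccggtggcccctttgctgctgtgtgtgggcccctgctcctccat
Hnf4a downstream: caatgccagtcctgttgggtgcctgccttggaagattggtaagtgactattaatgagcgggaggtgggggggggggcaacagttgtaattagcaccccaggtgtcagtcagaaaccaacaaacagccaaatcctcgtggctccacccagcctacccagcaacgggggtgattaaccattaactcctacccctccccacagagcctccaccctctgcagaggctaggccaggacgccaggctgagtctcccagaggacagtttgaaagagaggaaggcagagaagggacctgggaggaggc
The upstream window holds 1 match each to the GATA, SOX and forkhead letters, and the downstream window holds 0. Such short letters are common. Of 32851 RefSeq promoters of this length, 25.4% hold GATAA, 31.02% ATTGT, 20.5% TGTTTNC and 0.475% CAAAGTCCA. A match is a description of the sequence and not a bound site.

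PDGFRA, a receptor tyrosine kinase for platelet-derived growth factors, marks primitive endoderm and is also made by fibroblasts and other mesenchymal cells. Pdgfra (ENSMUSG00000029231, plus strand of chromosome 5, 75152292 to 75198215) had 35 reads in wildtype, 2 in the DAXX-/- clone and 10 in the ATRX-/- clone. Its levels were 2.41 CPM (1.68 to 3.35), 0.183 CPM (0.0222 to 0.662) and 0.722 CPM (0.346 to 1.33). Wildtype stood above both knockouts, whose intervals overlapped. Pdgfra fell in the DAXX-/- clone, with a log2 fold of -3.72 (-6.82 to -1.76). In the ATRX-/- clone its log2 fold was -1.74 (-2.92 to -0.69), below no change with an end inside 2-fold. Its pair of transcripts had 16 and 19 reads in wildtype, 1 and 1 in the DAXX-/- clone, and 6 and 4 in the ATRX-/- clone.

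The RefSeq promoter of Pdgfra (GRCm38.p6, chr5:75152001-75152300, plus strand) is shown because the receptor was low in the same library as the GATA and SOX factors. Its start lies 55 bases from that of 1 counted transcript.
Pdgfra: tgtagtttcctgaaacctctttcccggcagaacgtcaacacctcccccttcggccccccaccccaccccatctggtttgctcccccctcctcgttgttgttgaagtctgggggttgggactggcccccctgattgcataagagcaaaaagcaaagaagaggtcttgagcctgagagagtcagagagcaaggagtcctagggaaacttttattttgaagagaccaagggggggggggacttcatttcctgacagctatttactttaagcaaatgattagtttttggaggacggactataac
It holds 0 matches to the 4 sets of letters, which says only that these letters are not in this window.

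Of the PDGF ligands and receptors listed, 5 of 6 were tested in the DAXX-/- clone, and 0 besides Pdgfra rose or fell there, beside 0 of 5 in the ATRX-/- clone. Among all genes tested, 1.55% fell and 0.487% rose in the DAXX-/- clone, and 1.15% and 0.695% in the ATRX-/- clone. With so few genes a count of 0 is near these shares and does not set the list apart. Pdgfa, the main ligand of PDGFRA, had 491, 416 and 439 reads, log2 folds of 0.17 (-0.02 to 0.36) and -0.09 (-0.28 to 0.10). Pdgfc, another ligand, had 478, 496 and 449 reads, log2 folds of 0.46 (0.28 to 0.65) and -0.02 (-0.21 to 0.17). The sister receptor Pdgfrb, a gene of mural cells and fibroblasts, had 69, 34 and 62 reads, log2 folds of -0.61 (-1.25 to 0.002) and -0.09 (-0.60 to 0.43). The median log2 fold of the 6 genes was 0.05 in the DAXX-/- clone and -0.05 in the ATRX-/- clone, beside -0.01 and 0 over all 17773 genes with a read. Pdgfa, Pdgfc and Pdgfrb were picked for their roles after their values had been seen.

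Across the 8 genes, Gata4, Gata6, Sox17, Foxq1 and Pdgfra fell in the DAXX-/- clone and 0 rose. These are 5 of the 7 that passed the level filter, where 1.55% of all 13151 tested genes fell and 0.487% rose. Because scarce genes differ more, the share among tested genes with a total of reads in the range of the 8 (6 to 181) is also given, and of 2625 such genes 4.76% fell and 0.533% rose. Of the 7, 6 passed the filter through wildtype alone, so their count is a description. The 8 genes were also chosen with earlier results of these data known, so the shares beside them are no independent check. All 7 intervals lay wholly below no change, which held for 17.1% of tested genes. For Hnf4a this depended on the processing, as given in the last section. With nothing filtered and a prior count of 1 added, all 8 lay below wildtype, with a median of -3.08, beside 51.3% of genes with a read and a median of -0.01. In the same range of reads 68.7% of genes lay below wildtype, with a median of -0.40.

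In the ATRX-/- clone 0 of 7 tested genes rose or fell, where 1.15% of 13230 fell and 0.695% rose, and in the same range of reads 2.92% fell and 0.814% rose. All 8 again lay below wildtype, with a median of -0.96, beside 49.9% of all genes with a read and 58.2% of those in the same range of reads, whose median was -0.18. For Sox17, Sox7, Hnf4a and Pdgfra the whole interval lay below no change, which held for 21.3% of tested genes. These 4 passed the level filter through wildtype alone, so nothing is read from that count. Gata4 had the log2 fold nearest to 0 of the 8 in this library and Sox7 the lowest. The interval of Gata4 (-0.76 to 0.15) does not overlap that of Sox7 (-3.003 to -0.92). These ends of the 8 were set side by side after their values were seen, so this is a description. The comparisons of DAXX and of ATRX with wildtype use the same wildtype library, so their values are not independent.

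The knockouts were compared directly, without wildtype. Gata4 and Gata6 rose in the ATRX-/- clone over the DAXX-/- clone, by log2 folds of 2.72 (1.72 to 3.90) and 3.05 (1.02 to 6.19). They are 2 of 3 tested genes, where 0.77% of 12991 tested genes rose and 0.362% fell. In the same range of reads 2.03% of 2469 rose and 0.486% fell. Gata4 and Gata6 passed the level filter through the ATRX-/- clone alone, where they were high, so this count too is a description. Sox17 and Foxq1, with 8 and 10 reads against 0, had log2 folds whose intervals begin at 0.43 and 0.82, and did not reach 1 CPM in either clone. Pdgfra gave 1.98 (-0.25 to 5.21). Sox7 and Hnf4a, as given above, were the 2 genes with a value below 0.

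**Figure D2:**
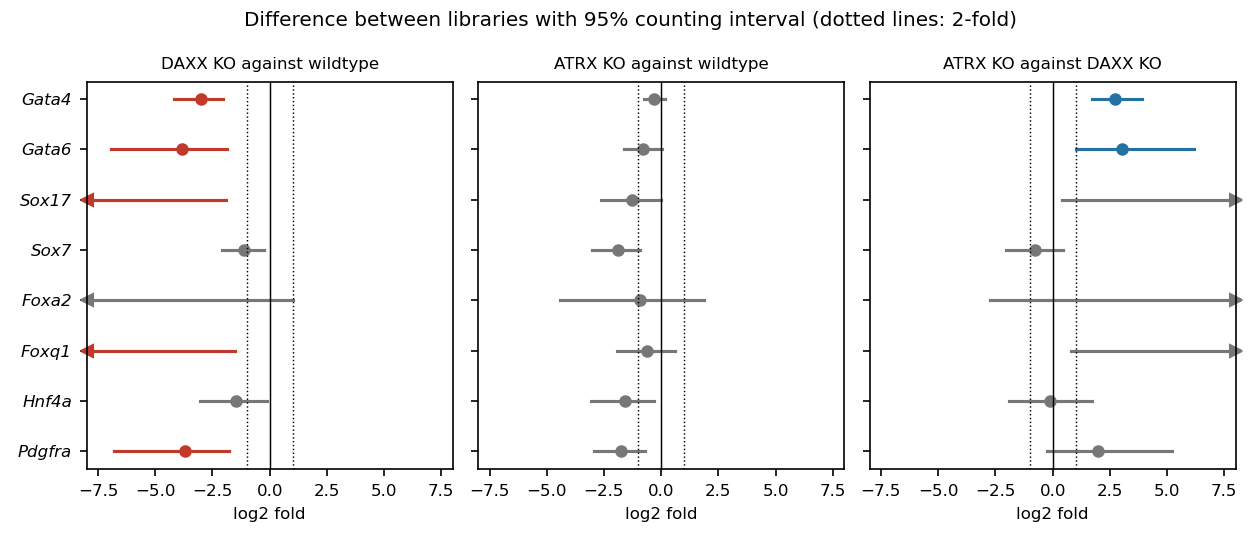
Log2 fold of each of the 8 genes (horizontal axis) in the DAXX-/- clone against wildtype, the ATRX-/- clone against wildtype and the ATRX against the DAXX-/- clone. Points are folds and lines 95% counting intervals, arrows mark intervals that run on because a library has 0 reads, coloured genes pass the 2-fold rule, and dotted lines mark 2-fold. Gata4, Gata6, Sox17, Foxq1 and Pdgfra pass it on the left, 0 genes in the middle, and Gata4 and Gata6 on the right.

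Levels between genes were compared per length, as TPM, which divides reads by the transcript lengths of the tables and scales each library to the same sum. In wildtype the order was Gata4 (4.63 TPM), Sox7 (1.79), Gata6 (1.63), Sox17 (1.56), Foxq1 (0.827), Pdgfra (0.731), Hnf4a (0.692) and Foxa2 (0.261). Neighbours from Sox7 to Sox17 and from Foxq1 to Hnf4a lay close together, at read counts of 20 to 43 and 16 to 35. In the ATRX-/- clone Gata4 led with 3.49 TPM, ahead of Gata6 at 0.877, Sox17 at 0.593 and Foxq1 at 0.503. In the DAXX-/- clone Sox7 (0.770 TPM) came before Gata4 (0.491), and the intervals of their CPM, 0.769 to 2.27 and 0.377 to 1.56, overlapped.

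Of 19 other regulators of endoderm, 8 were tested in the DAXX-/- clone and 0 rose or fell. For the ATRX-/- clone 9 were tested, and Otx2, a homeobox factor of epiblast and anterior visceral endoderm, fell. Of all tested genes 1.55% fell in the DAXX-/- clone and 1.15% in the ATRX-/- clone. Otx2 had 273, 88 and 33 reads in wildtype, the DAXX-/- clone and the ATRX-/- clone, log2 folds of -1.22 (-1.59 to -0.87) and -2.98 (-3.55 to -2.46). It was thus lower in the ATRX than in the DAXX-/- clone, the reverse of Gata4 and Gata6. The list had a median of -0.27 in the DAXX-/- clone and -0.10 in the ATRX-/- clone, over 18 genes with a read. Relatives of the 8 genes are in this list. Gata2, a factor of blood and trophoblast, had 67, 73 and 100 reads. Sox18, the remaining SOX F gene, had 14, 9 and 7. These relatives, and Nanog below, were chosen after their values were seen.

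Genes that work in the mature extraembryonic endoderm were read through 25 listed effectors. Of these, 19 were tested in the DAXX-/- clone, where 11 fell and 0 rose, beside 1.55% and 0.487% of all tested genes. In the ATRX-/- clone 5 of 19 fell and Apoe rose, where 1.15% of all tested genes fell and 0.695% rose. Srgn and others passed the level filter through wildtype alone, so these counts are a description. The medians over 24 genes with a read were -1.47 and -0.54, beside -0.01 and 0 over all genes with a read. Cubn, the endocytic receptor cubilin, had 213 reads in wildtype, 2 in the DAXX-/- clone and 23 in the ATRX-/- clone. Dab2, an endocytic adaptor, had 135, 10 and 41, and the basement membrane collagen Col4a1 had 1702, 231 and 1107. Srgn, a proteoglycan, had 45, 0 and 7. Rhox5, an X-linked homeobox gene also used as an endoderm marker, had 253, 34 and 7 and so was lowest in the ATRX-/- clone. Other effectors, chosen after their values were seen, did not fall in the DAXX-/- clone. There Lamc1 had a log2 fold of 0.42 (0.38 to 0.46) and Apoe 0.37 (0.29 to 0.45). Afp, Ttr and Apoa1 had 0 or 1 reads in each library. The level of the 25 genes summed to 1857 CPM in wildtype, 1675 in the DAXX-/- clone and 1849 in the ATRX-/- clone, with Lamc1 the highest in each. This list was chosen with results of these data known and is not independent evidence of the direction.

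The signal that raises Gata6 was measured through 16 genes of the FGF pathway, of which all 16 were tested and 0 rose or fell in either knockout. Among all genes tested, 1.55% fell and 0.487% rose in the DAXX-/- clone, and 1.15% and 0.695% in the ATRX-/- clone. A count of 0 in 16 is near these shares and does not set the list apart. Their median log2 fold was 0.06 in the DAXX-/- clone and -0.003 in the ATRX-/- clone. Etv5, a transcription factor induced by FGF signalling, had 4472, 5340 and 5337 reads, log2 folds of 0.67 (0.61 to 0.72) and 0.32 (0.27 to 0.38). Dusp4, a phosphatase of the feedback on this signal, chosen after its values were seen, had 208, 85 and 107 reads, log2 folds of -0.88 (-1.26 to -0.51) and -0.89 (-1.24 to -0.55). These members of the list thus lay on opposite sides of no change. Nanog, the epiblast factor opposed to GATA6, had 5951, 5434 and 7540 reads, log2 folds of 0.28 (0.23 to 0.33) and 0.41 (0.36 to 0.46), above no change and inside 2-fold.

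**Figure D3:**
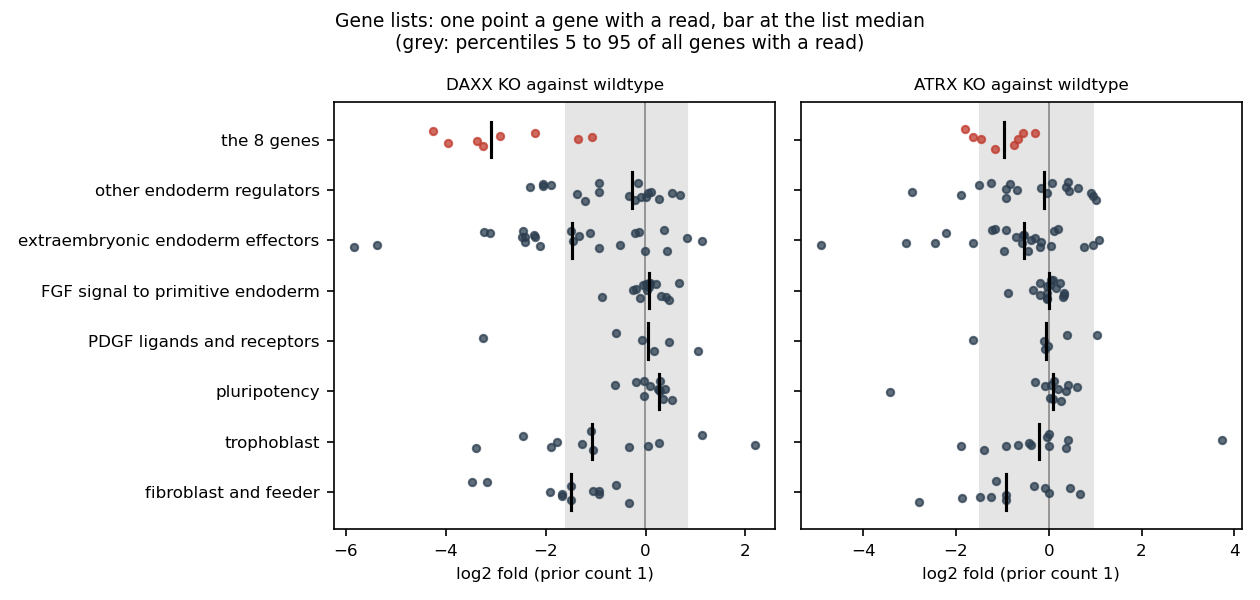
Log2 fold with a prior count of 1 (horizontal axis) of the genes of 8 lists in the DAXX-/- clone (left) and the ATRX-/- clone (right) against wildtype. Each point is a gene with a read, black bars are list medians, the grey band spans percentiles 5 to 95 of all genes with a read, and the vertical offset is for display. The 8 genes have medians of -3.08 and -0.96, and the FGF list medians of 0.06 and -0.003.

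Markers of other cells that the cultures could hold were read beside these results. All 12 pluripotency genes were tested and 0 rose or fell in the DAXX-/- clone, with a median of 0.26, while Dppa3 fell in the ATRX-/- clone, where the median was 0.10. The level of these 12 genes summed to 4824 CPM in wildtype, 5665 in the DAXX-/- clone and 5413 in the ATRX-/- clone, with Pou5f1 the highest in each library, so the defining genes of the labelled cell type were present throughout. The 14 fibroblast and feeder genes summed to 40.3, 14.3 and 25.6 CPM, the order that the 8 genes and Pdgfra have. Of them 4 of 7 tested fell in the DAXX-/- clone (Col1a1, Col1a2, Acta2 and Tagln) and 1 of 8 in the ATRX-/- clone (Acta2). Over all tested genes 1.55% fell in the DAXX-/- clone and 1.15% in the ATRX-/- clone. Col1a2 and Acta2 passed the level filter through wildtype alone, so these counts are a description. Fap and Lum, defining genes of fibroblasts, had 0 reads in all libraries, and Col3a1, Dcn and Postn had 2, 1 and 1 reads in wildtype and 0 in both knockouts, a difference that is not detectable at this depth. The 12 trophoblast genes summed to 131, 88.7 and 97.6 CPM, with Cdx2 and Elf5 at 0 in wildtype, Hand1 and Gata3 in the DAXX-/- clone, and Elf5 and Gata3 in the ATRX-/- clone. Of 8 tested in each comparison, Krt19 and Esx1 fell in the DAXX-/- clone and Krt19 in the ATRX-/- clone. Of 8 mesoderm genes 1 was tested in each comparison and 0 rose or fell (Mixl1, 26, 7 and 15 reads). Of 7 neuroectoderm genes 4 were tested, and Otx2 fell in the ATRX-/- clone. The part of these cell types in the values of the 8 genes was not tested.

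The nearest measured genes, up to 2 on each side, gave 30 neighbours, with 0 falling or rising in the DAXX-/- clone and a median log2 fold of 0.07. The ATRX-/- clone had 1 of 30 fall, with a median of 0.06, and in each of these comparisons 29 of 30 lay inside 2-fold. Of all tested genes 1.55% fell in the DAXX-/- clone and 1.15% in the ATRX-/- clone. Neil2, a DNA repair glycosylase gene next to Gata4, had 151, 129 and 239 reads. Kit, the receptor gene 423 kb from Pdgfra, had 1378, 1255 and 1426. The exception was Fam167a, 165 kb from the start of Gata4, with 81 reads in wildtype, 20 in the DAXX-/- clone and 13 in the ATRX-/- clone. It fell in the ATRX-/- clone, with a log2 fold of -2.57 (-3.54 to -1.72), where Gata4 itself was at -0.30, and in the DAXX-/- clone it was at -1.61 (-2.39 to -0.89).

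**Figure D4:**
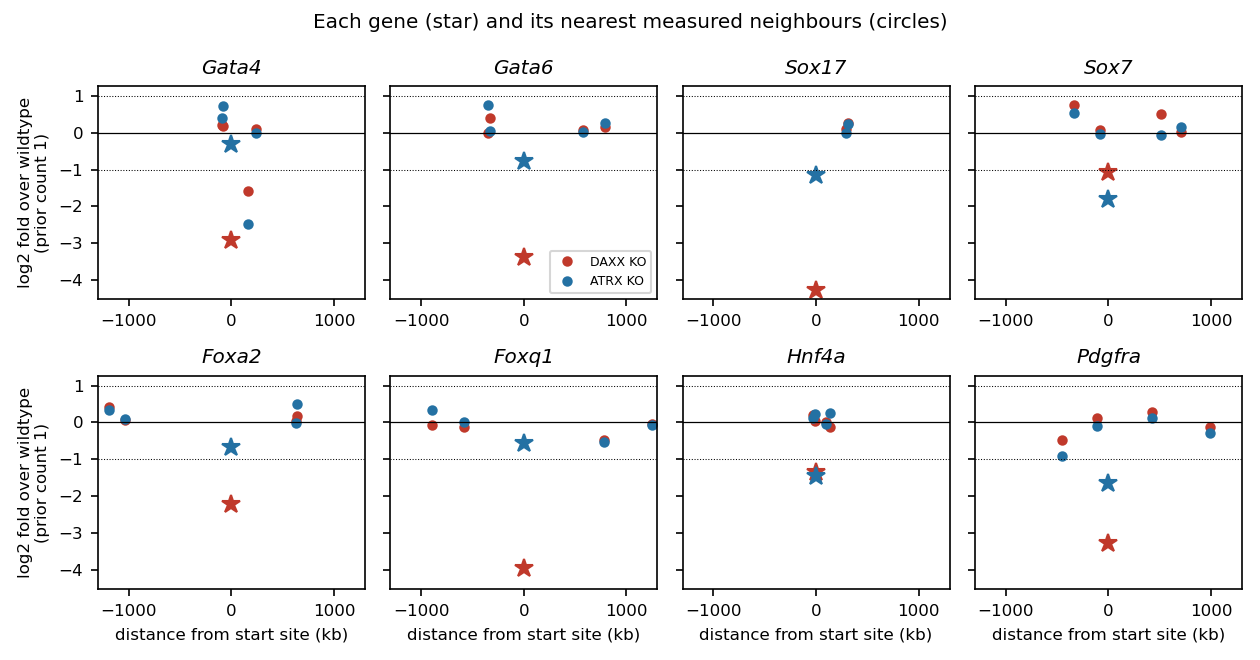
Log2 fold over wildtype with a prior count of 1 (vertical axis) of each of the 8 genes (stars at 0) and its nearest measured neighbours (circles), against the distance between start sites in kb. Red is the DAXX-/- clone, blue the ATRX-/- clone, and dotted lines mark 2-fold. All neighbours except Fam167a, beside Gata4, lie between the dotted lines in both knockouts.

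The genes most like each of 4 members were found by the distance between their pairs of log2 folds in the 2 knockouts against wildtype, over 10850 named genes with at least 100 reads in all. With 3 libraries this is a likeness of 2 values and no more. Pdgfra was nearest to Dab2 (distance 0.0241), followed by Thbs1, an adhesive matrix protein with 202, 16 and 56 reads, Krt19, the matrix protein gene Smoc1 (207, 14 and 51) and Fggy. Gata4 was nearest to Pstpip2 (58, 7 and 43 reads), Got1l1, Col4a1, Car12 and Mlf1. Gata6 was nearest to Car12 (74, 6 and 38 reads), Got1l1, Krt19, Fggy and Mlf1. Sox17, whose value in the DAXX-/- clone rests on 0 reads and the prior count, was nearest to the Y-linked gene Uty (434, 17 and 178 reads), Cr1l, Krt19, Shcbp1 and Eif2s3y, also Y-linked (768, 32 and 705 reads). The cells are male, and these Y-linked genes were lowest in the DAXX-/- clone, as was the sum of the 8 genes. Their likeness to Sox17 selected them for low values in that clone, so this order is only a description. The part of the Y-linked difference in the results was not tested.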

How the data were processed

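Each library's deposited table lists reference sequences, their lengths and the read counts aligned to them, as the authors deposited them, without normalisation. The submitters' processing notes name build GRCm38.p4, the aligner Bowtie 1.1.2, and SAMtools. For strand, alignment settings and annotation release, nothing was stated in the sources used here. Counts of 48843 transcripts were summed by symbol. Scaling used TMM (edgeR 4.0.16, R 4.3.3), with factors of 1.04, 0.973 and 0.990 for wildtype, DAXX and ATRX knockout. Fold intervals are exact conditional binomial (Clopper-Pearson) and level intervals exact Poisson. Both treat reads as independent, which PCR copies are not. The calling script was tested on simulated Poisson counts, with no variation between clones. Folds were set there only in genes with more reads than most of the 8 genes have. That test therefore says little about calls on scarce genes. Positions come from GENCODE M21, in which 16 of the 21 transcripts of the 8 genes had the tables' length. RefSeq promoters were found for 3 of the 8 genes (Foxa2, Hnf4a and Pdgfra). Genes named from the lists were, at most 4 a list and comparison, those past the 2-fold rule farthest from no change, or the 2 most abundant where none passed. Some genes that this rule names are not reported here. The members and lists were chosen with earlier results of these data known. Alternatives were DESeq2 1.42.0 size factors, total counts, the most abundant transcript, no level filter and thinned counts.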

Additional observations from a re-analysis of the deposited data

How the results depend on the processing

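Under 5 alternatives (DESeq2 size factors, total counts, the most abundant transcript of each gene, no level filter, and counts thinned to the smallest library), the members that fell in the DAXX knockout numbered 4 to 5, those that rose or fell in the ATRX knockout 0, and those higher in the ATRX than in the DAXX knockout 2. The most abundant transcript gave the 4, because Sox17, with 7 reads on it, no longer passed, and gave a median of 1.04 over the 8 genes between the knockouts in place of 2.12. The interval of Hnf4a in the DAXX knockout no longer lay wholly below no change under some alternatives. Its upper end was 0.008 with thinned counts and 0.70 on the most abundant transcript. All 48 values of the 8 genes in the DAXX knockout lay below wildtype, as did 47 of 48 in the ATRX knockout, the exception being Foxa2 with thinned counts. These values come from the same reads under the main and alternative settings. They are not independent, and their number adds no evidence of direction. The number of all genes that fell in the DAXX knockout ranged from 167 to 250. No paired analysis was possible because each genotype has 1 library, and no library could be left out for the same reason. Depth limits Foxa2 in all libraries and each gene with 0 to 2 reads in the DAXX knockout, where the interval of a count of 0 reaches 0.338 CPM.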
